A study of Mus musculus with 12 samples.

Results

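Mitochondrial ribosomal protein genes are described here, large subunit (Mrpl) and small subunit (Mrps) apart. They were chosen by name, as Mrpl or Mrps followed by a number and an optional letter, and names marked as pseudogenes would have been dropped. The rule found 78 of the 41079 gene IDs in the tables, 49 of the large and 29 of the small subunit. All 78 reached a mean of 1 TPM over the 12 libraries, the level needed for testing, as did 14107 genes in all. TPM, a share of the transcripts in a library, corrects for gene length, so that levels of different genes can be set side by side. Poly(A) RNA of mouse embryonic stem cells, pluripotent cells from the early embryo, was sequenced in 12 paired-end libraries. The 4 groups of 3 were Bod1l KO cells with tamoxifen and etoposide (KO + etoposide), Bod1l KO cells with tamoxifen (KO), WT cells with etoposide (WT + etoposide) and WT cells without treatment (WT). Bod1l encodes a subunit of the SETD1A histone methyltransferase complex, and etoposide is a topoisomerase II poison that breaks DNA. Tamoxifen is named for every KO library and for no WT library, so the effects of the KO and of tamoxifen cannot be told apart. The labels give no strain, no etoposide dose or duration, no statement of which piece of Bod1l was removed and no number of KO clones. They call the replicates biological without describing separate cultures, so each p-value below measures the spread between these libraries.

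The mitochondrial ribosome makes the few proteins that the mitochondrial genome encodes, which are core subunits of the respiratory chain complexes and of the ATP synthase. Its RNAs come from the mitochondrial genome, whereas all of its proteins are encoded in the nucleus, translated in the cytosol and imported. Some of these proteins descend from ribosomal proteins of bacteria, and others are found only in mitochondria. The Mrpl and Mrps names are older than the structures of the mammalian ribosome. In those structures the proteins of Mrps18a and Mrps30 sit in the large subunit, and the Mrps36 protein is now known as a part of the oxoglutarate dehydrogenase complex. The counts below follow the names.

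The targeted gene separated the genotypes in every library. Bod1l lay between 11.7 and 13.0 TPM in KO + etoposide and between 11.2 and 12.0 TPM in KO, against 46.5 to 51.1 TPM in WT + etoposide and 48.5 to 50.6 TPM in WT. The ratio of coverage to FPKM put the depth at 5.23 to 7.76 gigabases of aligned sequence per library. Of 10 stem cell markers 9 were found in the tables, the lowest of them Klf4 with 152.5 to 179.3 TPM, so the labelled cell type has its markers. Their summed level was 7396 to 7724 TPM in KO + etoposide, 7798 to 7908 TPM in KO, 7937 to 8257 TPM in WT + etoposide and 8449 to 8457 TPM in WT, and the part of this difference in the results below was not tested. The gap in Dppa5a alone was about as large as that in the sum, with 3335 TPM in KO + etoposide and 3259 TPM in KO, against 3933 TPM in WT + etoposide and 3806 TPM in WT on average. By gene, KO had 2 of the 9 markers lower and 1 higher without etoposide (median 0.02), and 2 lower and 5 higher with it (median 0.06). The shares over all tested genes were 21.5% lower and 28.1% higher without etoposide, and 21.7% and 22.5% with it. Of 8 markers of feeder fibroblasts, Dcn was at 0 in 10 libraries, Col3a1 and Lum in 9 and Postn in 8. The summed feeder level was 9.97 to 10.3 TPM in KO + etoposide, 9.79 to 11.0 TPM in KO, 11.1 to 11.8 TPM in WT + etoposide and 10.9 to 11.9 TPM in WT, most of it Thy1 and Pdgfrb.

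Over all 12 libraries the large subunit genes ranged from 10.4 TPM (Mrpl41) to 227.9 TPM (Mrpl42), with a median of 86.1 TPM. The small subunit genes ranged from 22.5 TPM (Mrps25) to 178.9 TPM (Mrps18b), with a median of 75.9 TPM. RNAs for proteins of one assembled particle thus differed 21.9-fold in level within the large subunit and 7.94-fold within the small. After Mrpl42 the highest large subunit genes were Mrpl18, Mrpl12, Mrpl21 and Mrpl28. The lowest after Mrpl41 were Mrpl57, Mrpl48, Mrpl19 and Mrpl11. Mrps16, Mrps18c, Mrps2 and Mrps5 followed Mrps18b, and Mrps33, Mrps14, Mrps10 and Mrps23 were the lowest after Mrps25. Most steps in this order were small. Of the 77 pairs of neighbours in the order of WT means, 65 had overlapping library values.

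In untreated cells, a larger share of the members than of all tested genes was lower in KO. Of 49 large subunit genes, KO had 27 at a lower and 2 at a higher level, with 20 that did not pass the test, which was limma on log2(TPM + 1) over all 14107 genes with an adjusted p under 0.05. Among 29 small subunit genes KO had 16 lower, 3 higher and 10 that did not pass. Among all tested genes 21.5% were lower and 28.1% were higher, against 55.1% of the large and 55.2% of the small subunit genes lower. The median log2 difference was −0.15 for the large and −0.13 for the small subunit, against 0.04 for all tested genes. Differences are of log2(TPM + 1) with their SE, and this scale understates the fold of low genes. The median SE was 0.047 for the members, against 0.067 for all tested genes, and the share of genes called depends on it. In bulk RNA, a lower level in each cell cannot be told apart from fewer cells that express a gene.

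Mrpl11 differed most between the genotypes. Its protein forms part of the base of the stalk, where translation factors bind the ribosome. It stood at 17.3, 15.7 and 16 TPM in KO + etoposide and at 14.3, 16.1 and 16.5 TPM in KO, against 44.1, 44.3 and 46.3 TPM in WT + etoposide and 45.4, 44.4 and 46.7 TPM in WT. Every KO library lay far below every WT library, with and without etoposide. The untreated KO held 34.3% of the WT mean (−1.49 ± 0.055, limma adjusted p = 2.2e-09), and with etoposide the KO held 36.4% (−1.41 ± 0.055, adjusted p = 4.13e-09).

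Mrpl24, Mrpl2 and Mrpl33 held 48.5%, 50.3% and 50.6% of the WT mean in the untreated KO. Mrpl24, whose bacterial counterpart starts the folding of the large subunit RNA, had 68.3, 67.7 and 67.1 TPM in KO + etoposide and 59.5, 65.2 and 64.1 TPM in KO, against 128.3, 121.0 and 130.2 TPM in WT + etoposide and 135.8, 126.3 and 127.6 TPM in WT. Mrpl2, whose protein lies close to the catalytic centre that joins amino acids, had 72.3, 69.5 and 74.2 TPM in KO + etoposide and 71.4, 68.6 and 73.2 TPM in KO, against 137.2, 142.8 and 134.8 TPM in WT + etoposide and 139.5, 143.4 and 140.8 TPM in WT. No KO library of either gene came near the WT range. Mrpl33, a small protein with a bacterial counterpart, had 52.5, 53.3 and 51.2 TPM in KO + etoposide and 49.4, 50.4 and 54.4 TPM in KO, against 113.2, 99.8 and 103.7 TPM in WT + etoposide and 107.3, 95.9 and 101.8 TPM in WT. The untreated differences were −1.03 ± 0.041 for Mrpl24 (limma adjusted p = 3.92e-09), −0.98 ± 0.034 for Mrpl2 (1.56e-09) and −0.97 ± 0.054 for Mrpl33 (4.69e-08). With etoposide they were −0.89 ± 0.041, −0.93 ± 0.034 and −1.0 ± 0.054. In the coordinates of the files (GRCm39, plus strand) Mrpl11 lies at chr19:5012180-5017023, Mrpl24 at chr3:87825438-87830757, Mrpl2 at chr17:46957094-46961058 and Mrpl33 at chr5:31771295-31779988. These changes also moved the genes within the order of levels. Mrpl2 ranked 13 of 78 in WT and 42 in KO, Mrpl24 ranked 16 in WT and 54 in KO, and Mrpl33 ranked 32 in WT and 65 in KO.

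**Figure D1:**
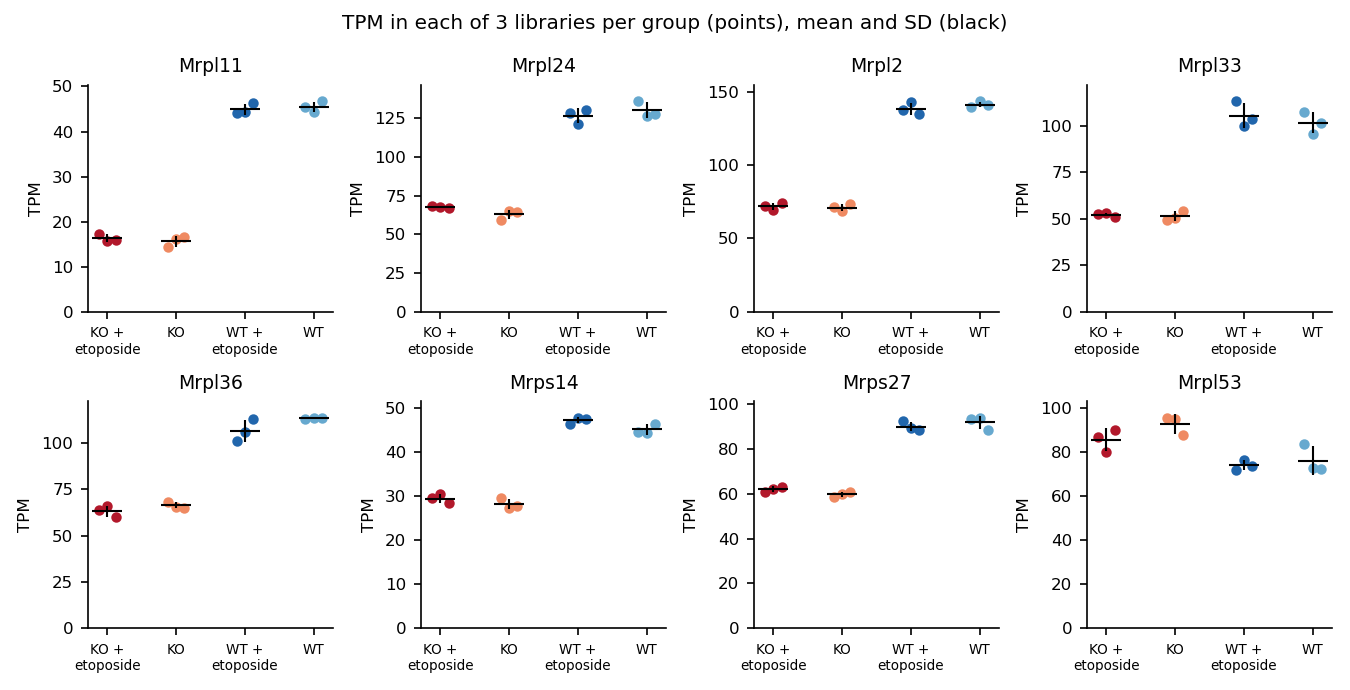
TPM (vertical axes, starting at 0) of 8 members in the 3 libraries of each group, with the group mean and SD in black. For Mrpl11, Mrpl24, Mrpl2, Mrpl33, Mrpl36, Mrps14 and Mrps27 every KO library lies below every WT library. For Mrpl53 the KO libraries lie above the WT libraries of the same condition, but not above all WT libraries.

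The sequence just before the start of transcription is shown for 3 of these genes, the most changed without etoposide. It is then shown for 3 members that hold a motif, among them Mrpl53, which was higher in KO. Each line gives 150 bases that end at the base before the start, on the gene's own strand, from RefSeq on GRCm38.p6. Capitals mark motifs searched on both strands in the window from 250 bases before the start to 50 after it. They were CCGGAAG of the ETS family, to which GABP belongs, AAGATGGCG of YY1 and GCGCATGCG of NRF1, regulators known for many nuclear genes of mitochondrial proteins.
Mrpl11, chr19:4962156-4962305: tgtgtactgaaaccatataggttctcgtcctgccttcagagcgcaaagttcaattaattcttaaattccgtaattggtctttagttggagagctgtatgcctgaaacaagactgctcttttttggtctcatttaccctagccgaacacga
Mrpl24, chr3:87919394-87919543: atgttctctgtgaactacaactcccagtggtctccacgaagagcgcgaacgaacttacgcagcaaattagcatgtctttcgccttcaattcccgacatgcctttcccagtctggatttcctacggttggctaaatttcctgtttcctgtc
Mrpl2, chr17:46646071-46646220: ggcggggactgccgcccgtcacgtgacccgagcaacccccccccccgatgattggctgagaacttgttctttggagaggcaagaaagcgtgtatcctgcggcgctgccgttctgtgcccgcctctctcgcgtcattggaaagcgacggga
Mrpl36, chr13:73330859-73331008: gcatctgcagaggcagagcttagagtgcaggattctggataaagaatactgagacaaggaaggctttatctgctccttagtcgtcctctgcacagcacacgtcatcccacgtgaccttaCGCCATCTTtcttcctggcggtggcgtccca
Mrps27, chr13:99344636-99344785: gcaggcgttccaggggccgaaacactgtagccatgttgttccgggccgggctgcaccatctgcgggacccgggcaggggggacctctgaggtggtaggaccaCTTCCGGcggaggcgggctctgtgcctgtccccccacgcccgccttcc
Mrpl53, chr6:83108958-83109107: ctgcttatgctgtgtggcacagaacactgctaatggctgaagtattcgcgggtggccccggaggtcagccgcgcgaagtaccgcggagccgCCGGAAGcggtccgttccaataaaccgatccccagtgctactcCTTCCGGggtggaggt

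None of these letters stood in the window of Mrpl11, Mrpl24 or Mrpl2. Outside the 250 bases before the start, the window of Mrpl33 held an ETS match and that of Mrps27 a YY1 match. Mrpl36 had a YY1 match on the opposite strand 31 bases before its start, Mrps27 an ETS match 48 bases before, also on the opposite strand, and Mrpl53 a pair of ETS matches 59 and 16 bases before. Of the 78 members 69 had a promoter in the table. An ETS match stood in 36.2% of these windows, a YY1 match in 11.6% and an NRF1 match in 10.1%. Among the 10435 windows of tested genes the shares were 18.3%, 3.24% and 3.68%, and among all 27025 windows they were 9.12%, 1.49% and 1.81%. At least 1 of the 3 motifs stood in 50.7% of the members' windows, against 23.7% for tested genes. Of the 39 members with a window that were lower in untreated KO, 41.0% held an ETS match, and of the 30 that were not lower, 30.0% did. For YY1 the shares were 15.4% and 6.67%, and for NRF1 they ran the other way, with 7.69% and 13.3%. They rest on 16, 6 and 3 lower members with a match. A match is a description of letters and not of a bound site.

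Apart from these 4, the large subunit genes with the largest differences were Mrpl41 and Mrpl36. Mrpl36, a very small protein with a bacterial counterpart, had 63.9, 65.9 and 59.9 TPM in KO + etoposide and 68.3, 65.8 and 65.2 TPM in KO, against 101.3, 105.8 and 113.2 TPM in WT + etoposide and 113.0, 113.6 and 113.7 TPM in WT (untreated −0.76 ± 0.043, limma adjusted p = 5.76e-08). Mrpl41, a protein of mitochondrial ribosomes only, had 7.83, 8.50 and 8.15 TPM in KO + etoposide and 6.44, 7.28 and 7.55 TPM in KO, against 12.6, 14.1 and 13.7 TPM in WT + etoposide and 13.3, 12.9 and 12.6 TPM in WT (untreated −0.78 ± 0.067, adjusted p = 1.64e-06). Neither gene's KO libraries reached the WT range. Mrpl42, the most abundant member in WT, fell to 180.4 ± 7.8 TPM in KO, against 283.7 ± 11.1 TPM in WT (SD, n = 3), a difference of −0.65 ± 0.038, and ranked behind Mrpl18 and Mrpl12 in KO.

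In all, 14 large subunit genes were lower by at least 0.5 on the log2 scale in untreated KO. Besides the 7 just given they were Mrpl51, Mrpl38, Mrpl17, Mrpl34, Mrpl55, Mrpl45 and Mrpl52, with differences of −0.64 to −0.51. The Mrpl17 protein lies at the exit of the tunnel through which the new chain leaves, and Mrpl45 holds the ribosome against the inner membrane there. Counting the small subunit, 18 of 78 members (23.1%) were lower by that much, against 7.03% of all tested genes. The stalk genes besides Mrpl11 differed from each other. Mrpl10 was lower by −0.48 ± 0.03 and Mrpl12, which carries the mobile tips of the stalk, by −0.09 ± 0.03 (limma adjusted p = 0.0253).

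Several abundant large subunit genes were at almost the same level in both genotypes. Mrpl49 had 118.5, 117.8 and 111.3 TPM in KO, against 112.9, 116.7 and 113.5 TPM in WT (0.02 ± 0.031, limma adjusted p = 0.636). Mrpl22, whose protein lines the exit tunnel, differed by −0.01 ± 0.047 and Mrpl54 by 0.01 ± 0.031. Their KO and WT libraries overlapped. Of the 30 members of both subunits that did not pass, 24 had a 95% interval that lay within 0.25 of no difference. The others included Mrpl48, Mrpl58, Mrpl39 and Mrpl1, whose libraries varied widely within groups. Mrpl48 stood at 7.70, 12.8 and 20.2 TPM in KO, against 15.8, 25 and 12.4 TPM in WT. Its SD within groups was 0.509 on the log2 scale, where the median member had 0.059.

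Mrpl53 and Mrpl28 were the 2 large subunit genes that were higher in KO. Mrpl53, a protein of mitochondrial ribosomes only, had 86.9, 79.8 and 89.8 TPM in KO + etoposide and 95.4, 94.9 and 87.4 TPM in KO, against 71.8, 76.2 and 73.6 TPM in WT + etoposide and 83.5, 72.5 and 72.0 TPM in WT. The KO libraries lay above the WT libraries at both conditions (untreated 0.28 ± 0.06, limma adjusted p = 0.00206). With etoposide the difference was 0.21 ± 0.06 (adjusted p = 0.015), and it did not pass without KO + etoposide replicate 3 or without WT + etoposide replicate 1 (adjusted p up to 0.0608). Mrpl28, which has a bacterial counterpart, was higher by 0.18 ± 0.035 without etoposide (adjusted p = 0.00103) and by 0.16 ± 0.035 with it (0.00271).

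In the small subunit the largest difference was that of Mrps14, which has a bacterial counterpart. It stood at 29.5, 30.4 and 28.4 TPM in KO + etoposide and at 29.6, 27.4 and 27.8 TPM in KO, against 46.5, 47.8 and 47.6 TPM in WT + etoposide and 44.6, 44.4 and 46.5 TPM in WT. All 6 KO libraries lay below all 6 WT libraries. The untreated difference was −0.66 ± 0.04 (limma adjusted p = 1.08e-07), and with etoposide it was −0.67 ± 0.04. Mrps27, a pentatricopeptide repeat protein of mitochondrial ribosomes only, had 60.6, 62.3 and 63.0 TPM in KO + etoposide and 58.5, 59.7 and 60.8 TPM in KO, against 92.2, 89.2 and 88.4 TPM in WT + etoposide and 93.3, 93.8 and 88.5 TPM in WT (untreated −0.62 ± 0.032, adjusted p = 3e-08). Here too the genotypes did not overlap. Mrps10 and Mrps17, both with bacterial counterparts, were lower by −0.55 ± 0.077 and −0.51 ± 0.066, so that 4 small subunit genes were lower by at least 0.5.

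Of the 5 most abundant small subunit genes 4 were lower, by less than these. The other, Mrps18c, did not pass (0.09 ± 0.049, limma adjusted p = 0.141), although its KO libraries lay above its WT libraries. Mrps5, which in bacteria lies where the messenger enters, was lower by −0.47 ± 0.025 and Mrps2 by −0.40 ± 0.029, with non-overlapping libraries. Mrps16 had 127.8, 131.0 and 147.6 TPM in KO, against 181.2, 172.3 and 179.3 TPM in WT (−0.39 ± 0.047, limma adjusted p = 3.02e-05). Mrps12, the counterpart of a bacterial protein of the decoding centre, was lower by −0.21 ± 0.041 and Mrps18b, the most abundant of the small subunit, by −0.14 ± 0.021. Mrps25, the least abundant, did not pass, with 22.7, 22.8 and 21.2 TPM in KO, against 22.2, 22.9 and 21.8 TPM in WT (−0.00 ± 0.044, adjusted p = 0.968). Mrps22 did not pass either (0.01 ± 0.044).

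The 3 small subunit genes that were higher in untreated KO were Mrps6, Mrps26 and Mrps11. Mrps6 had 67.4, 73.6 and 63.1 TPM in KO, against 62.8, 58.1 and 54.0 TPM in WT, and its lowest KO library lay just above the highest WT library (0.22 ± 0.068, limma adjusted p = 0.0184). This call was lost without KO replicate 2 or WT replicate 3 (adjusted p up to 0.0796). Mrps6 encloses Slc5a3, a myo-inositol transporter gene on the same strand, over 29138 of its 53892 bases. Slc5a3 was itself higher in KO by 0.64 ± 0.059, and how reads of the 2 genes were divided was not tested. Mrps26 was higher by 0.17 ± 0.054, a call lost without KO replicate 2, without WT replicate 2 and with FPKM (adjusted p up to 0.0799). Mrps11 was higher by 0.16 ± 0.06 (adjusted p = 0.0454) with overlapping libraries, and none of the 3 calls held under every alternative tried. Without KO replicate 2 no small subunit gene was called higher, and without WT replicate 3 only 1 was.

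With etoposide in both genotypes, the comparison rested on the other 6 libraries. KO + etoposide had 26 of 49 large subunit genes lower than WT + etoposide, 3 higher and 20 that did not pass, with a median of −0.14. In the small subunit 17 of 29 genes were lower, 3 higher and 9 did not pass, also with a median of −0.14. Among all tested genes 21.7% were lower and 22.5% higher, with a median of 0.02. Lower by at least 0.5 were 17 members (21.8%), against 7.33% of all tested genes. The list held Mrpl55 (−0.74 ± 0.046), which has a bacterial counterpart, with 26.9, 28.7 and 28.5 TPM in KO + etoposide, against 45.7, 49 and 47.6 TPM in WT + etoposide. It also held Mrps23 (−0.59 ± 0.036), with 50.5, 51.8 and 52.2 TPM in KO + etoposide, against 80.6, 79.0 and 75.2 TPM in WT + etoposide. Neither gene's groups overlapped. Mrps16 was lower by −0.46 ± 0.047, also without overlap. Genes higher in KO + etoposide were Mrpl53, Mrpl28, Mrpl9, Mrps11, Mrps26 and Mrps18c, by 0.14 to 0.21. The call of Mrpl9 ended without KO + etoposide replicate 1 or 3 or WT + etoposide replicate 1 or 3, that of Mrps11 without replicate 1 or 2 of either group, and that of Mrps26 without KO + etoposide replicate 1 or 3 or WT + etoposide replicate 2 (adjusted p up to 0.0859). Only 1 large subunit gene was higher without KO + etoposide replicate 3, and only 1 small subunit gene without KO + etoposide replicate 1 or WT + etoposide replicate 2.

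**Figure D2:**
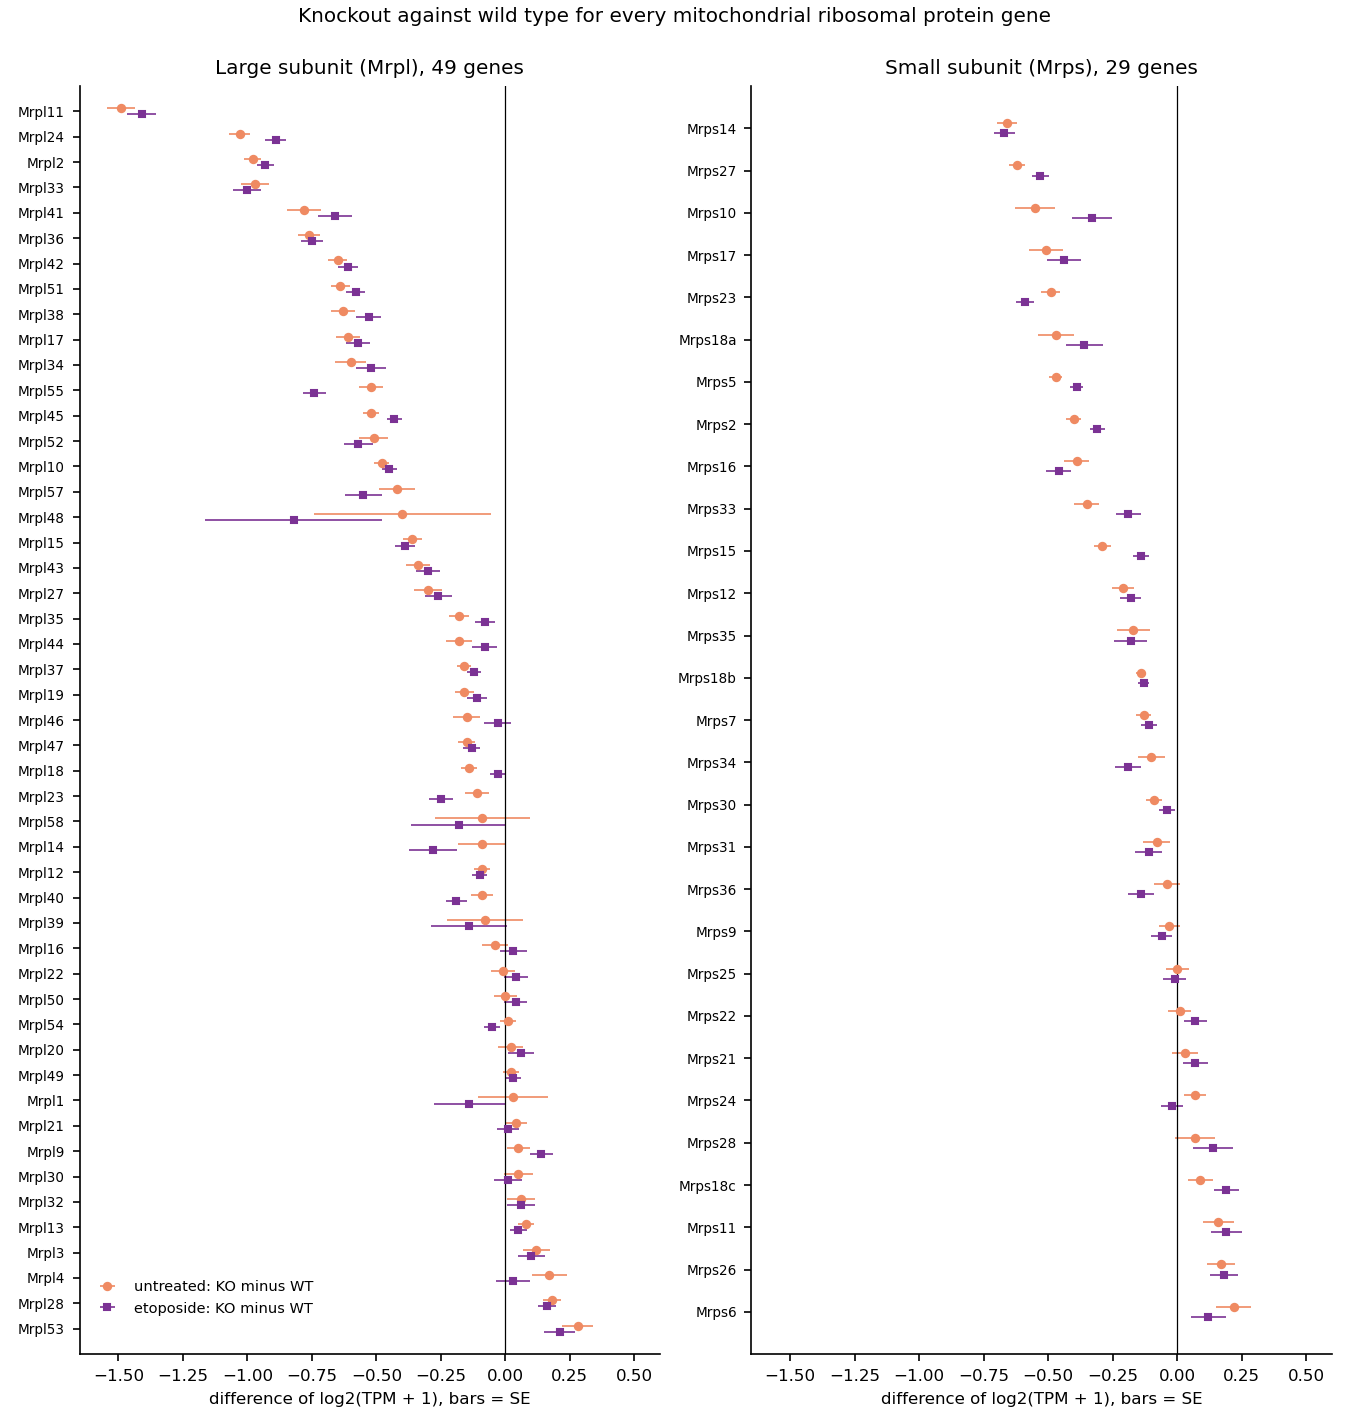
Difference of log2(TPM + 1), KO minus WT, for each of the 49 large (left) and 29 small (right) subunit genes, untreated (circles) and with etoposide (squares), with SE bars. Genes are ordered by the untreated difference, from Mrpl11 at −1.49 to Mrpl53 at 0.28, and Mrpl48 has the widest bars.

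The 2 genotype comparisons use no library in common, though they share the fitted spread. Of the 43 members lower in untreated KO and the 43 lower in KO + etoposide, 38 were the same genes. Of the 5 and 6 that were higher, 4 were shared (Mrpl53, Mrpl28, Mrps11 and Mrps26), and no member changed in opposite directions. The differences had the same sign in 72 of 78 members, and across genes, which are not independent replicates, they correlated with Pearson r = 0.956 and Spearman rho = 0.934. This agreement was not computed over all tested genes, so it is not shown to be particular to the members.

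Summed over the members, the level in KO stood apart from WT in every library. The 49 large subunit genes summed to 3980 ± 25.5 TPM in KO + etoposide and 4065 ± 8.31 TPM in KO, against 4702 ± 40.9 TPM in WT + etoposide and 4818 ± 50.2 TPM in WT (SD, n = 3 each). The 29 small subunit genes summed to 2338 ± 18.2 TPM in KO + etoposide and 2329 ± 27.3 TPM in KO, against 2616 ± 14.7 TPM in WT + etoposide and 2656 ± 29.8 TPM in WT. The untreated KO thus held 84.4% of the WT sum for the large and 87.7% for the small subunit, and with etoposide the KO held 84.6% and 89.4% of WT. The ratio of the large to the small sum was 1.70 in KO + etoposide and 1.75 in KO, against 1.80 in WT + etoposide and 1.82 in WT. These genes made up 0.63% to 0.643% of all TPM in the 6 KO libraries and 0.726% to 0.755% in the 6 WT libraries. Sums give more weight to abundant genes. Of the 39 members above 90.1 TPM in WT, 26 were lower in untreated KO and 1 was higher. Of the other 39, 17 were lower and 4 were higher, where 21.5% of all tested genes were lower and 28.1% higher. This split used the WT libraries that also enter the calls, which places genes lower in KO more easily in the upper part. These counts therefore do not show that the calls depend on level.

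**Figure D3:**
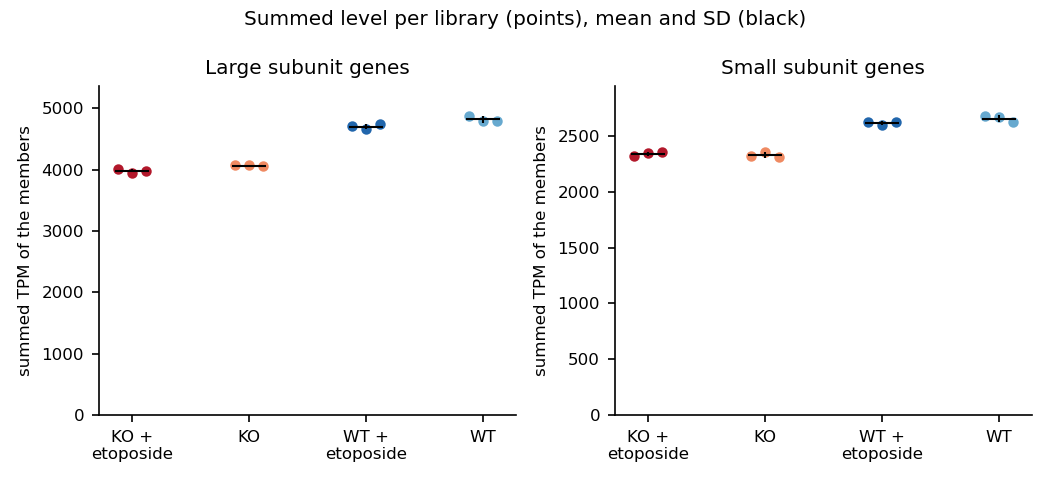
Summed TPM (vertical axes, starting at 0) of the large (left) and small (right) subunit genes in each of 3 libraries per group, with mean and SD in black. All KO libraries lie below all WT libraries in both panels, and the etoposide and untreated libraries of a genotype lie close together.

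Genes of either descent were among the lower ones. Of 47 members with a bacterial counterpart, 26 were lower and 3 higher in untreated KO, with a median of −0.14. Of 31 found only in mitochondria, 17 were lower and 2 higher, with a median of −0.15. The 2 classes hold 55.3% and 54.8% lower genes. Over all tested genes 21.5% were lower and 28.1% higher, with a median of 0.04.

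Fewer of these genes passed the test between etoposide and no treatment, and their differences were smaller. In WT cells 7 large subunit genes were lower with etoposide and 3 were higher, and 6 small subunit genes were lower and 2 were higher. Among all tested genes 13.5% were lower and 20.8% were higher. The medians were −0.02 for the large and −0.03 for the small subunit, against 0.02 for all tested genes. Under quantile normalization the members had 11 lower and 5 higher, and calls over all genes had 43.9% higher instead of 60.7%. Under median-of-ratios scaling the members had 18 lower and 3 higher, and calls over all genes had 51.0% higher. No member was lower or higher by 0.5. Of the 14107 tested genes, 90 (0.638%) passed the test and were lower by at least that much, and 1103 were higher.

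Mrpl18, the counterpart of a bacterial protein that binds the smallest ribosomal RNA, had the largest decrease with etoposide in WT. It stood at 218.8, 212.8 and 213.0 TPM in WT + etoposide, against 246.2, 244.4 and 260.6 TPM in WT, with no overlap (−0.22 ± 0.031, limma adjusted p = 0.000142). Mrps30 (−0.18 ± 0.031), Mrpl46 (−0.17 ± 0.053), Mrpl35 (−0.15 ± 0.038), Mrpl47 (−0.14 ± 0.033), Mrpl12, Mrps5 and Mrps12 (each −0.13) followed. Mrps15 (−0.11 ± 0.032) and Mrpl45 (−0.09 ± 0.03) fell less. Mrps6 rose most, to 72.0, 76.9 and 75.9 TPM in WT + etoposide, against 62.8, 58.1 and 54.0 TPM in WT (0.36 ± 0.068, adjusted p = 0.0014), and Slc5a3 within it rose too, by 0.34 ± 0.059. Mrpl57 (0.22 ± 0.071), Mrpl16 (0.21 ± 0.052), Mrpl23 (0.20 ± 0.047) and Mrps23 (0.11 ± 0.036) also rose. Several of these calls hung on single libraries (adjusted p up to 0.204). That of Mrpl46 ended without any WT + etoposide replicate or WT replicate 1 or 2, that of Mrpl57 without any WT + etoposide replicate or WT replicate 1 or 3, and that of Mrps23 without replicate 1 or 2 of either group. Mrps12 lost its call without WT + etoposide replicate 2 or 3 or WT replicate 2, and Mrpl12 lost it under quantile normalization (adjusted p = 0.0639). Mrps15 lost its call without WT + etoposide replicate 3. Mrpl45 lost its call under quantile normalization and without WT + etoposide replicate 1 or 3 or WT replicate 2. Without WT + etoposide replicate 1 the large subunit had 4 lower genes. Without that replicate or WT replicate 1 the small subunit had 1 higher gene.

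In KO cells 4 large and 2 small subunit genes were lower with etoposide, and 2 large and 1 small were higher. Among all tested genes 10.5% were lower and 14.5% were higher. Mrpl40 (−0.20 ± 0.042) had 87.1, 90.5 and 91.4 TPM in KO + etoposide, against 100.4, 99.8 and 109.6 TPM in KO. Mrpl16, whose bacterial counterpart helps to place the transfer RNA, had 77.3, 71.5 and 73.5 TPM in KO + etoposide, against 59.5, 61.7 and 61.4 TPM in KO (0.28 ± 0.052, limma adjusted p = 0.00189). In neither gene did the groups overlap. Mrpl12 (−0.14 ± 0.03), Mrps30 (−0.13 ± 0.031), Mrpl47 and Mrpl18 (each −0.12) and Mrps18b (−0.06 ± 0.021) fell, and Mrps6 (0.26 ± 0.068) and Mrpl10 (0.11 ± 0.03) rose. Mrps18b lost its call under 15 of 19 alternatives, 12 of them leaving out a single library, with adjusted p up to 0.148. Mrpl47 lost its call without KO + etoposide replicate 1 or 2 or KO replicate 1, and Mrpl18 without KO replicate 1 or 2. Mrpl10 lost its call without KO + etoposide replicate 1, and Mrps6 without KO + etoposide replicate 1 or 2 or KO replicate 3, which left no small subunit gene higher. Without KO replicate 1 the large subunit had 2 lower genes, and without KO + etoposide replicate 1 it had 1 higher gene.

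The etoposide comparisons of the 2 genotypes share no library either. Of the 13 genes lower in WT and the 6 lower in KO, 5 were the same (Mrpl18, Mrpl12, Mrpl47, Mrps30 and Mrps18b). Of the 5 and 3 that were higher, 2 were the same, Mrpl16 and Mrps6. The overlap over all tested genes was not computed here either. The interaction, the difference of the etoposide change between KO and WT, passed the test for 0 of 78 members in limma, with 6 at an unadjusted p under 0.05. Among all tested genes 1.16% had a lower and 0.0709% a higher interaction, and 1604 of 14107 had an unadjusted p under 0.05. The smallest adjusted p was that of Mrpl55 (−0.22 ± 0.065, adjusted p = 0.187), and for 51 members the 95% interval of the interaction lay within 0.25 of 0.

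**Figure D4:**
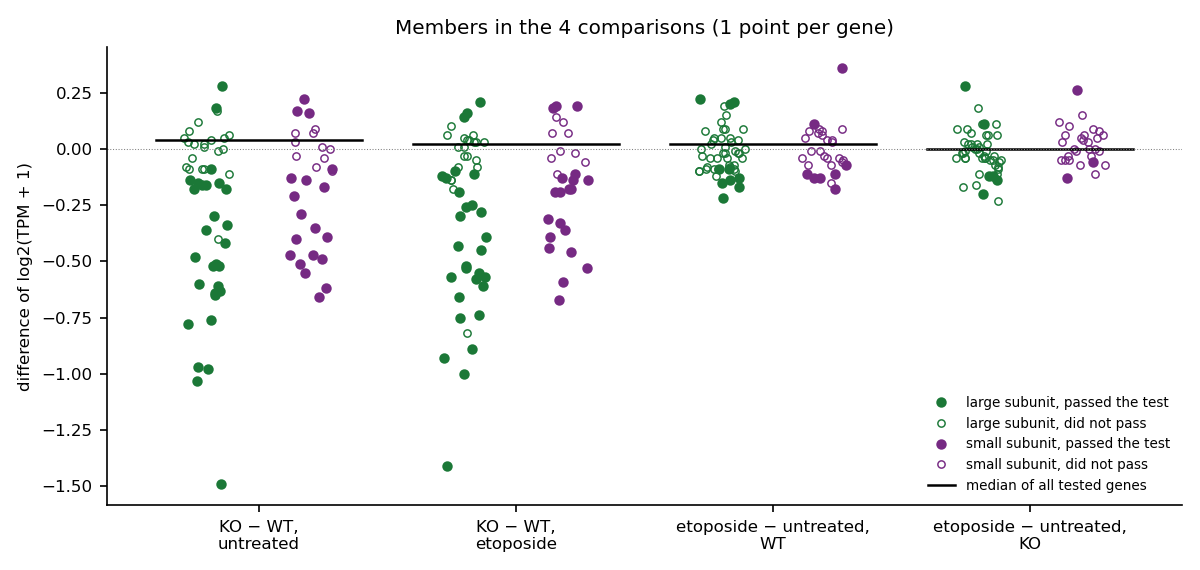
Differences of log2(TPM + 1) for each member in the 4 comparisons, large subunit left and small subunit right in each, with filled points for members that passed the test and a line at the median of all 14107 genes. The genotype comparisons reach −1.49, and the etoposide comparisons stay between −0.23 and 0.36.

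Many members share their start region with a gene on the other strand. A tested gene in the opposite direction started within 1000 bases for 31 of 78 members (39.7%), against 16.2% of all tested genes. Of the 19 such members that were lower in untreated KO, the partner was lower in 6, higher in 6 and did not pass in 7. Of the 12 other members with a partner, the partner was lower in 4 and higher in 2, and among all tested genes 21.5% were lower and 28.1% higher. Mrpl2 starts 21 bases from Klc4, a kinesin light chain gene, which was higher by 0.23 ± 0.05. Mrps27 starts 60 bases from Ptcd2, which was lower as well (−0.53 ± 0.043, limma adjusted p = 1.12e-06), and Mrps12 starts 147 bases from the mitochondrial seryl-tRNA synthetase gene Sars2 (−0.61 ± 0.046). Mrps2 and its partner Pierce1 differed in direction, with −0.40 ± 0.029 and 0.68 ± 0.035. Mrpl46 and Mrps11 are partners of each other, 42 bases apart, and had −0.15 ± 0.053 and 0.16 ± 0.06.

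Other genes also overlap the members or resemble them. In the coordinates of the files (GRCm39) 22 members overlap a tested gene, and for these the split of reads is uncertain, since use of the strand in the quantification is not given in the sources used here. Mrpl24 shares 850 of its 5320 bases with Mettl25b on the other strand, and Mettl25b did not pass the test (−0.03 ± 0.055, limma adjusted p = 0.627). Mrpl14 shares 5524 of 17733 bases with Tmem63b, which was higher by 0.47 ± 0.027. Mrpl33 lies wholly within Gm38424 on the same strand, over all 8694 of its bases, and Gm38424 averaged 0.335 TPM, too low for testing. Counting genes too low to be tested, 27 members overlap another gene. Mrpl11 overlaps none. A processed pseudogene at least 95% identical over at least 250 bases was found in GENCODE transcripts for 16 members, among them Mrpl41, Mrpl42, Mrpl51, Mrps10 and Mrps16. None of the 19 copies is a gene of the tables, and reads shared with them are uncertain. Mrpl11, Mrpl24, Mrpl2 and Mrpl33 have no such copy.

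The wider machinery of mitochondrial translation was described from lists of genes chosen with earlier results of these data known, and their counts in untreated KO stand beside 21.5% lower and 28.1% higher among all tested genes. Among proteins of this ribosome with other names, 1 of 5 was lower in untreated KO, Chchd1 (−0.24 ± 0.059), and Dap3, Ptcd3, Aurkaip1 and Gadd45gip1 did not pass. Of 32 genes for ribosome assembly and RNA modification 18 (56.2%) were lower and 2 higher. Tfb1m, which methylates the small subunit RNA, had 7.08, 7.84 and 6.14 TPM in KO + etoposide and 6.48, 5.46 and 6.00 TPM in KO, against 26.8, 30.4 and 30.4 TPM in WT + etoposide and 28.1, 28.1 and 26.6 TPM in WT. The KO thus held 21.7% of WT without etoposide (−2.04 ± 0.083, limma adjusted p = 4.43e-09). The GTPases Gtpbp10 (−1.35 ± 0.066) and Mtg1 (−0.95 ± 0.086) and the RNase Ybey (−0.94 ± 0.09) were lower too. Of 18 translation factors 13 (72.2%) were lower and none higher, with Taco1 (−1.39 ± 0.085), an activator of translation of a cytochrome oxidase subunit, and the release factor Mtrf1 (−1.32 ± 0.095) at the front, then Guf1 and Mtif2.

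Of 22 mitochondrial aminoacyl-tRNA synthetase and amidotransferase genes 15 (68.2%) were lower and 2 higher. Gatb, a subunit of the amidotransferase that makes glutaminyl-tRNA, averaged 2.79 ± 0.246 TPM in KO, against 16.3 ± 0.867 TPM in WT (SD, n = 3). Its difference of −2.19 ± 0.092 was larger than that of any Mrpl or Mrps gene. Of 17 genes for mitochondrial DNA upkeep and transcription 7 (41.2%) were lower, among them Tefm (−1.10 ± 0.076), an elongation factor of the mitochondrial RNA polymerase. Of 37 nuclear genes for complex I, which takes in several products of this ribosome, 22 (59.5%) were lower and 7 higher, among them Ndufc1 (−0.96 ± 0.064).

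Cytosolic ribosomal protein genes are given for comparison. Of 80 tested, 11 were lower and 25 higher in untreated KO, with a median of 0.03, where 21.5% of all tested genes were lower and 28.1% higher. With etoposide 10 were lower and 27 higher, where 21.7% of all tested genes were lower and 22.5% higher. Of 11 regulators of nuclear genes for mitochondrial proteins, 4 (36.4%) were lower in untreated KO and 1 was higher, against 21.5% lower and 28.1% higher among all tested genes. Gabpa, the DNA-binding subunit of GABP, averaged 105.3 ± 2.86 TPM in KO, against 121.1 ± 2.62 TPM in WT (−0.20 ± 0.031, limma adjusted p = 0.000211), and its partner Gabpb1 was higher by 0.18 ± 0.068. Max (−0.13 ± 0.024) and Mycn (−0.09 ± 0.026) were lower. Nrf1 (−0.02 ± 0.055) and Yy1 (−0.13 ± 0.13) did not pass the test. With etoposide 6 of these 11 regulators were lower and 1 was higher in WT, and 4 were lower and 2 higher in KO. In WT 13.5% of all tested genes were lower and 20.8% higher, and in KO 10.5% and 14.5%. Mycn was lower in both genotypes, with −0.42 ± 0.026 in KO and −0.45 ± 0.026 in WT. Esrra was higher in both, with 0.54 ± 0.051 in KO and 0.44 ± 0.051 in WT.

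**Figure D5:**
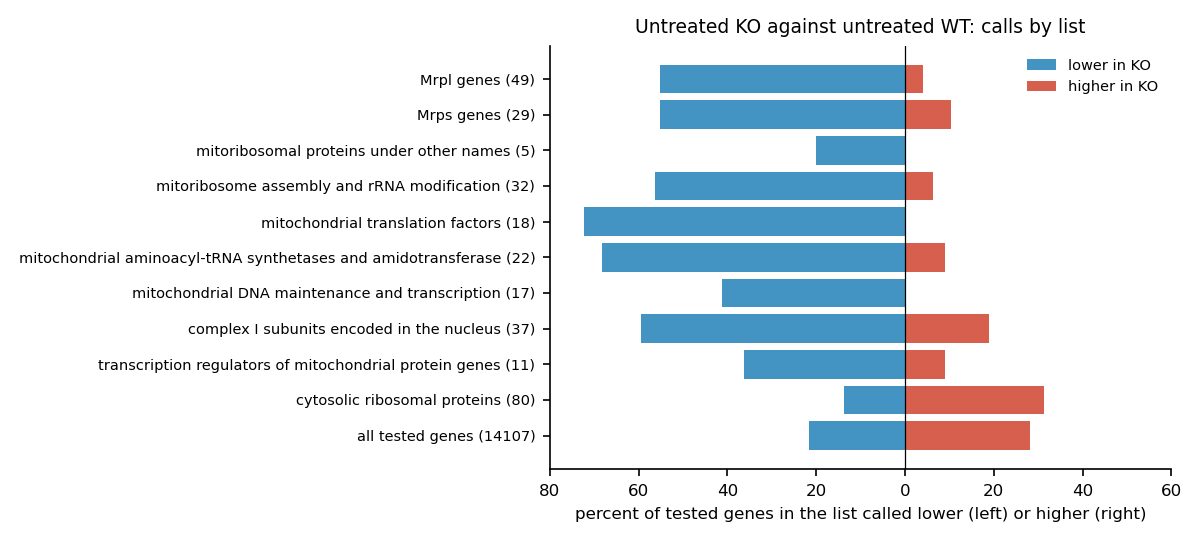
Percent of the tested genes of each list called lower (bars to the left) or higher (bars to the right) in untreated KO against WT, with the number tested in brackets. The Mrpl and Mrps bars reach 55.1% and 55.2% to the left, against 21.5% for all 14107 genes and 13.8% for cytosolic ribosomal proteins.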

How the data were processed

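Poly(A) RNA was depleted of ribosomal RNA and made into strand-specific libraries, per the labels' protocols. Per the submitters' processing notes the tools were Trim Galore 0.6.6, cutadapt 3.4, HISAT2 2.2.1 and StringTie 2.2.1, and the build was GRCm39. Per the file headers the authors deposited for each gene TPM, which sums to a fixed total per library, FPKM, and coverage, the mean read depth over the gene. Entries that shared a gene ID were summed. The values are not counts, so limma 3.58.1 (R 4.3.3) was fitted to log2(TPM + 1) of the 14107 genes whose TPM averaged 1 or more, with 4 group means and a variance trend on abundance (prior df 3.91, residual df 8). P-values were adjusted by Benjamini-Hochberg over all tested genes within each of 5 comparisons, and an adjusted p under 0.05 was called. The code was checked on simulated data. Depth came from the ratio of coverage to FPKM.

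The members and gene lists were chosen with earlier results of these data known. The text names, in each comparison, up to 6 large and 4 small subunit genes per direction that passed with non-overlapping libraries, the 4 genes Mrpl11, Mrpl24, Mrpl2 and Mrpl33, the 5 highest and 5 lowest levels of each subunit, genes with overlaps, and up to 4 genes per list. Members outside this rule were named after their values were seen. Alternatives were a pseudocount of 0.1, no filter or a mean of at least 5 TPM, FPKM, median-of-ratios scaling, quantile normalization, a replicate block and leaving out each library. Python 3.11.15, pandas 2.3.3, matplotlib 3.10.9 and BLAST 2.17.0 were used. Promoter sequences are RefSeq's on GRCm38.p6, and coordinates of the 2 builds were not mixed.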

Additional observations from a re-analysis of the deposited data

How the results depend on the processing

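Across 19 alternatives, the untreated KO calls held in every one for 25 of 27 lower large subunit genes and 14 of 16 lower small subunit genes, and with etoposide for 23 of 26 and 15 of 17. The large and small medians of −0.15 and −0.127 in untreated KO were −0.175 and −0.153 with FPKM and −0.172 and −0.15 with median-of-ratios scaling. Small subunit genes higher in KO numbered 1 with FPKM in both genotype comparisons. For etoposide in WT, median-of-ratios scaling gave 12 lower large subunit genes, medians of −0.055 and −0.061 and 1 higher small subunit gene, and FPKM also gave 1. For etoposide in KO, FPKM, quantile normalization and the replicate block each gave 1 lower small subunit gene. The interaction medians became 0.047 and 0.049 with median-of-ratios scaling. The median of all tested genes moved by similar amounts. In untreated KO it went from 0.04 to 0.013 with FPKM and to 0.02 with median-of-ratios scaling. With median-of-ratios scaling it went from 0.023 to −0.004 for etoposide in WT and from −0.023 to −0.002 for the interaction. These shifts of the medians are thus not particular to the members. The cause of the changed counts was not tested.

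Leaving out single libraries gave 0 to 3 higher small subunit genes in untreated KO. With etoposide it gave 1 to 3 higher large genes, a large median of −0.176 to −0.137 and 1 to 4 higher small genes. For etoposide in WT it gave 4 to 9 lower large and 1 to 2 higher small genes. For etoposide in KO it gave 1 to 3 higher and 2 to 5 lower large genes, 0 to 1 higher and 1 to 2 lower small genes. The interaction medians ran from −0.001 to 0.032 for the large and from 0.005 to 0.051 for the small subunit. Uncalled values changed sign for Mrpl2 (0.00 for etoposide in WT with quantile normalization, −0.01 to 0.04 for etoposide in KO) and Mrpl33 (interaction, −0.07 to 0.02). Across all tested genes, same-numbered libraries did not deviate together (correlations of −0.045 to 0.045), so the replicate block is not a paired test. Single members could differ from this. Mrpl39 rose with the replicate number in KO, WT + etoposide and WT, and Mrpl58 was highest in replicate 1 of these groups. Neither did so in KO + etoposide. The replicate block changed no other count of members by over 1.5 times. Depth is known only as aligned bases, so counting error per gene cannot be given.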
